A study of Mus musculus with 6 samples.

Results

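Transcripts of 10 alarmin and antimicrobial genes were measured in mouse skin at the close of a diabetic ulcer experiment. They were S100a8, S100a9, Lcn2, Camp, Ngp, Ltf, Slpi, Defb3, Defb4 and Defb14, taken by gene name from a table of 57010 genes, and each matched 1 row. The skin came from 6 mice labelled WT, 3 given CST in a gel on the skin and 3 given Yoda1 the same way, with 1 library of total RNA per mouse. CST is cortistatin, a neuropeptide related to somatostatin, and Yoda1 is a synthetic opener of the mechanosensitive channel Piezo1. The sources used here do not give strain, age, doses, the way diabetes was induced or how long treatment lasted. Skin without either agent was not analysed here, and the comparison is therefore of one treatment with the other.

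Alarmins are proteins that cells release when injured or activated and that alert the immune system. Neutrophils and wounded keratinocytes both make several of them, while other antimicrobial proteins are packed into neutrophil granules during development in the bone marrow, when their mRNA is most abundant. S100a8 and S100a9 encode the subunits of calprotectin, which binds calcium and withholds zinc and manganese from microbes and signals through Tlr4 and Ager. Lcn2 captures bacterial iron-carrying siderophores, Ltf binds iron, Camp gives rise to the cathelicidin peptide of the mouse, and beta-defensins are small cationic peptides held together by disulphide bonds.

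Levels are in FPKM (fragments per kilobase of transcript, scaled to library depth), so genes and libraries are compared after correction for length and depth. The depth recovered from the steps of these values was 23791352 to 29620526 reads per library. CST mouse 1 and Yoda1 mouse 3 stood apart, with 6.72% and 7.61% of the FPKM sum in mitochondrially encoded transcripts, against 3.25% to 3.81% in the other 4 libraries. The labels tag the samples as keratinocytes as well as skin. The basal keratins Krt14 and Krt5 were abundant in every library (Krt14 between 5835 and 14601 FPKM). Fibroblast, macrophage and skeletal muscle transcripts were present too, so the values are those of whole tissue.

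S100a8 and S100a9 made up most of the summed FPKM of the 10 genes in every library, and Camp, Ngp and Ltf were scarce. S100a9 and S100a8 ranked among the 502 most abundant genes of all 57010 in every library, Defb14, Slpi and Lcn2 lay between 33.2 and 314 FPKM, Defb3 and Defb4 between 0.676 and 8.15 FPKM, and Camp, Ngp and Ltf lay near or below 1 FPKM. No tested member differed between the treatments beyond the spread between mice. limma (a linear model on log2(FPKM + 1) that pools the variance over all genes, with Benjamini-Hochberg adjustment at a threshold of 0.05) called 0 of the 7 members with a mean of at least 1 FPKM, and 0% of the 14588 genes tested. At an unadjusted p under 0.05 it held 1 of the 7, Slpi, beside 4.0% of all genes. In 0 of the 7 did the treatments separate without overlap, beside 6.59% of all genes (4.52% with CST higher and 2.08% with CST lower), and 5 of 7 had a log2 change above 0, beside 47.2% of all genes. The median log2 change was 0.17 for the 7 and -0.01 for all genes.

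**Figure D1:**
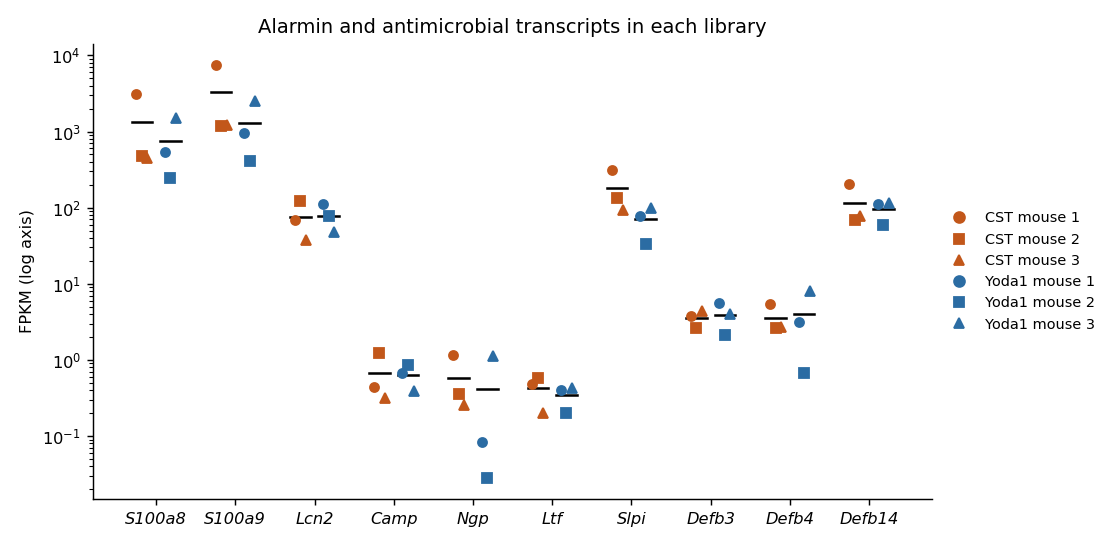
FPKM of the 10 genes in each library on a log axis, CST mice left and Yoda1 mice right of each gene; points are mice and bars are group means. S100a8 and S100a9 stood highest, Camp, Ngp and Ltf lowest, and the treatments overlapped for every gene.

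S100a8 (ENSMUSG00000056054, chr3:90668978-90670035, plus strand, GRCm38) measured 3066, 474 and 449 FPKM in CST mice 1 to 3, against 533, 246 and 1486.5 FPKM in Yoda1 mice 1 to 3. One mouse of each treatment was high, CST mouse 1 and Yoda1 mouse 3, and the other 4 lay between 246 and 533 FPKM, so the groups overlapped. The group means were 1329.7 ± 1504 FPKM in CST skin and 755 ± 649.6 FPKM in Yoda1 skin (SD, n = 3 each), which limma put at 0.58 on the log2 scale (SE 0.87, adjusted p = 1.000). The range within a treatment, 6.83-fold in CST and 6.05-fold in Yoda1 skin, exceeded the 1.76-fold ratio of the means. The direction rested on single mice, since it turned to -0.33 when CST mouse 1 was left out and to -0.04 when Yoda1 mouse 2 was. With estimated library weights, the largest of which was 12.8 for Yoda1 mouse 1, it was 0.07. Without both high libraries, which also had the high mitochondrial share, it was 0.35. The part of that share in the result was not tested.

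S100a9 (ENSMUSG00000056071, chr3:90692632-90695721, minus strand) lies beside S100a8 in the S100 gene cluster. It measured 7553, 1169.98 and 1208 FPKM in CST mice and 954, 411 and 2539 FPKM in Yoda1 mice, and the same 2 libraries were highest. Its mean was 3310.3 ± 3675 FPKM in CST skin and 1301 ± 1106 FPKM in Yoda1 skin (SD, n = 3 each), which limma put at 1.14 on the log2 scale (SE 0.87, adjusted p = 1.000). The log2 change was 0.25 without CST mouse 1, 0.50 without Yoda1 mouse 2 and 1.81 without Yoda1 mouse 3, and no call was made in any of these. Without CST mouse 1 and Yoda1 mouse 3 together it was 0.92. In CST mouse 1 S100a9 was the 5th most abundant gene by FPKM. Between 3541 and 93991 reads stood behind each S100a8 or S100a9 value, so counting error was small beside the differences between mice.

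The promoters of this pair, as given by RefSeq on GRCm38.p6 (250 bases before the start and 50 from it), are shown because S100a8 and S100a9 moved together across the libraries, beside that of Ngp, a granule gene. Binding motifs were searched on both strands: C/EBP as TTGCNNAA, NF-kappaB as GGGA and TTCC with 2 free bases between, AP-1 as TGANTCA and STAT as TTCNNNGAA, of which only C/EBP matched a member. Capitals mark matches.
S100a8, chr3:90668821-90669120, plus strand: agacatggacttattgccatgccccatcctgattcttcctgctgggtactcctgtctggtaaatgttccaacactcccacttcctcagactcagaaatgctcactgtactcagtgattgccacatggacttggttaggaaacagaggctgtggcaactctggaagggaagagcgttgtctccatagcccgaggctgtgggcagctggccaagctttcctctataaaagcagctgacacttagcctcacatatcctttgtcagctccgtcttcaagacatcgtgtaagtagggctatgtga
S100a9, chr3:90695672-90695971, minus strand: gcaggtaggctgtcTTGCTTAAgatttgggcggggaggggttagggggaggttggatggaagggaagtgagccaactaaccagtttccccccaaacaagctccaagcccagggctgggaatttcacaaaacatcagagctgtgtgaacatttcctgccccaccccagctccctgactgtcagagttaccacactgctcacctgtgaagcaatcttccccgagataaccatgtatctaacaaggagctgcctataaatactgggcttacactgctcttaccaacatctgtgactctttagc
Ngp, chr9:110419558-110419857, plus strand: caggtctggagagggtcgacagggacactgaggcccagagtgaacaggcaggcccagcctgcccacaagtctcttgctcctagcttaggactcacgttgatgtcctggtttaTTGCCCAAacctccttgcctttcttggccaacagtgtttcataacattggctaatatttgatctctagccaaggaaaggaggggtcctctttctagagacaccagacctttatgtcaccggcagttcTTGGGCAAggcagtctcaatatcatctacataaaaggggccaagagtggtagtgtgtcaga
The S100a9 window held a C/EBP match from 236 bases before the start, TTGCTTAA, the S100a8 window held none of the 4 motifs, and the Ngp window held 2 C/EBP matches. Of the 8 members with a promoter entry, all but Defb4 and Defb14, 6 held a C/EBP match and 0 held any of the other 3 motifs. The window of Ltf, also a granule gene, held 1 C/EBP match, and that of Camp, another, held none of the 4 motifs. Of all 32851 promoter windows of this length, 10.8% held the C/EBP letters, 1.47% NF-kappaB, 7.81% AP-1 and 8.30% STAT. A match describes the letters only and says nothing of binding.

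Ratios between members were compared within each library over the 21 pairs of tested members. The treatments did not overlap in 2 of the 21, beside 8.88% of all pairs of the 14500 tested genes above 0 in every library, so the count is near the background and is given as a description. S100a8 FPKM divided by S100a9 FPKM was 0.406, 0.405 and 0.372 in CST mice 1 to 3, against 0.559, 0.598 and 0.585 in Yoda1 mice 1 to 3. All 3 CST values lay below all 3 Yoda1 values, and the ratio was alike in the high and the low libraries of each treatment. The means were 0.394 ± 0.0193 in CST and 0.581 ± 0.0199 in Yoda1 skin (SD, n = 3 each), a difference of -0.56 on the log2 scale. A two-sided exact permutation test gave p = 0.1, the smallest that 3 mice against 3 allow, and 0.788 after Benjamini-Hochberg adjustment over the 21 pairs of tested members. A ratio within a library does not depend on the scaling between libraries. Leaving out any 1 library gave between -0.59 and -0.52.

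The other pair without overlap was Slpi over Defb14, at 1.55, 1.94 and 1.21 in CST mice and 0.711, 0.553 and 0.869 in Yoda1 mice, with p = 0.1 by the same exact test and 0.788 after adjustment. The other 19 pairs overlapped, and no pair passed the adjusted threshold.

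**Figure D2:**
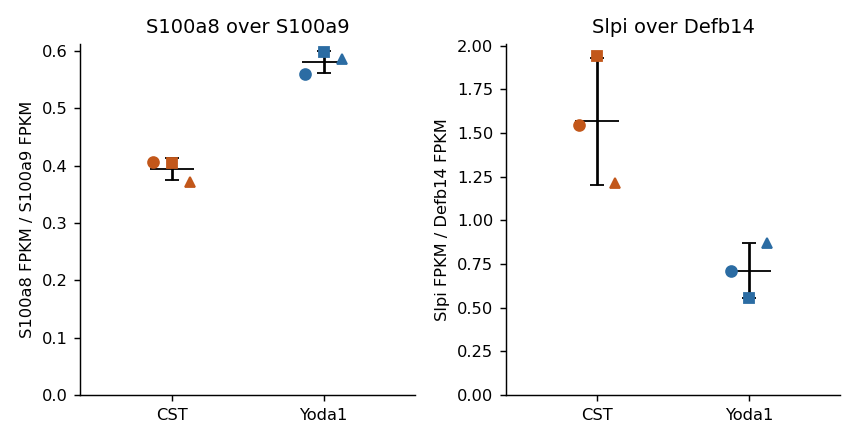
Ratio of S100a8 to S100a9 FPKM (left) and of Slpi to Defb14 FPKM (right) in each mouse, CST left and Yoda1 right in each panel; points are mice, and bars are the mean ± SD of 3 mice. S100a8 over S100a9 was between 0.372 and 0.406 in CST mice and between 0.559 and 0.598 in Yoda1 mice.

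Slpi (ENSMUSG00000017002, chr2:164354070-164389095, minus strand), the secretory leukocyte protease inhibitor that blocks neutrophil elastase and cathepsin G, came nearest to a difference. It measured 314, 135 and 92.8 FPKM in CST mice 1 to 3 and 78.9, 33.2 and 98.9 FPKM in Yoda1 mice 1 to 3. The groups met at a single point, where Yoda1 mouse 3 lay above CST mouse 3. The means were 180.5 ± 118 FPKM in CST and 70.3 ± 33.7 FPKM in Yoda1 skin (SD, n = 3 each), which limma put at 1.29 on the log2 scale (SE 0.53, unadjusted p = 0.0420, adjusted p = 1.000), so the difference did not pass. Under median-of-ratios scaling the unadjusted limma p was 0.0569. The difference was 0.80 with CST mouse 1 left out, 0.83 with Yoda1 mouse 2 left out, and 1.11 without the 2 libraries of high mitochondrial share. Between 637 and 4962 reads stood behind each value.

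Lcn2 (ENSMUSG00000026822, chr2:32384633-32388252, minus strand), the siderophore-binding lipocalin, followed another order. It measured 69.3, 121 and 37.9 FPKM in CST mice and 110.3, 76.9 and 47.9 FPKM in Yoda1 mice. Its highest libraries were CST mouse 2 and Yoda1 mouse 1, not those highest for S100a8 and S100a9, and Yoda1 mouse 2, lowest for the other 6 tested members, ranked in the middle. The means were 76.0 ± 41.9 FPKM in CST and 78.4 ± 31.2 FPKM in Yoda1 skin (SD, n = 3 each), which limma put at -0.12 on the log2 scale (SE 0.46, adjusted p = 1.000), turning to 0.30 without CST mouse 3 and 0.17 without Yoda1 mouse 1. Without the 2 libraries of high mitochondrial share it was -0.44. The difference between centred log2 profiles, as a root mean square over the 6 libraries, was 1.46 between Lcn2 and S100a8 and 0.28 between S100a8 and S100a9.

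**Figure D3:**
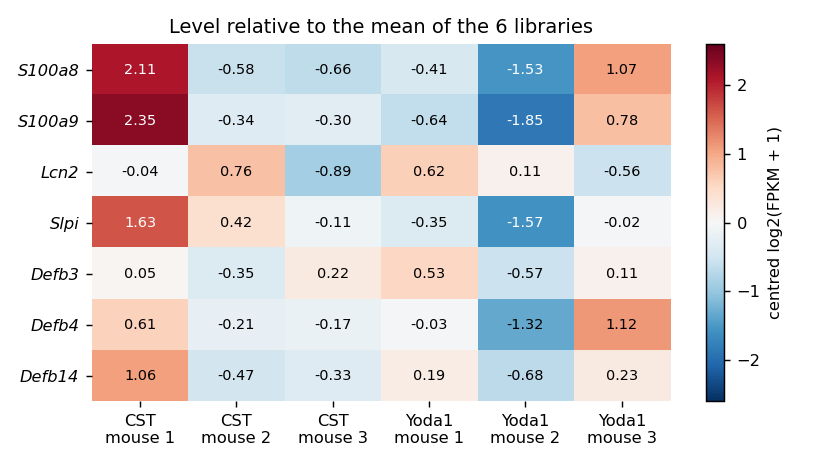
log2(FPKM + 1) of the 7 tested genes in each library after subtraction of the gene's mean over the 6 libraries; red is above and blue below that mean, with CST mice left of Yoda1 mice. S100a8, S100a9 and Slpi were highest in CST mouse 1 and lowest in Yoda1 mouse 2, and Lcn2 was highest in CST mouse 2.

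Of the 3 beta-defensins among the members Defb14 was highest in every library, and the values of each overlapped between treatments. Defb6, a beta-defensin outside the 10, was higher still, at 357 to 665 FPKM. The coding sequences of the 3 members from GENCODE M21 transcripts are shown because these genes belong to 1 family on chromosome 8, where similar sequences could share reads. Capitals mark in-frame cysteine codons, the residues that form the disulphide bonds.
Defb3: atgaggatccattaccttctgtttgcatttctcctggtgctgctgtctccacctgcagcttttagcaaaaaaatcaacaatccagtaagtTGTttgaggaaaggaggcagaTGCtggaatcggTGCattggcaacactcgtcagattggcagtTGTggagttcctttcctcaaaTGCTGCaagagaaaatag
Defb4: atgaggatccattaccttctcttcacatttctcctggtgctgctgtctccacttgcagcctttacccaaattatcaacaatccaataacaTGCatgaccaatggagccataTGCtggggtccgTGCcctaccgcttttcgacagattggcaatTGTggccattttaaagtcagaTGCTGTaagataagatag
Defb14: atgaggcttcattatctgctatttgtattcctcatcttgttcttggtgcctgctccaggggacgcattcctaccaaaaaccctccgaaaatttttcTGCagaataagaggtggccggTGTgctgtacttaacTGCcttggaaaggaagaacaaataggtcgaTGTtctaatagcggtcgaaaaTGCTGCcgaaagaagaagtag
Each held 6 cysteine codons. Defb3 and Defb4 were 76.0% identical over 192 aligned columns, Defb3 and Defb14 56.7%, and Defb4 and Defb14 52.6%. No stretch of 50 bases was shared among the transcripts of the 3 genes, and of the 10 members Defb4 alone shared such stretches with another annotated gene, Defb8 (5.68% of its 405), so part of the Defb4 value is uncertain.

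Defb14 (ENSMUSG00000046354, chr8:19194357-19195212), the mouse counterpart of a human beta-defensin of keratinocytes, measured 203, 69.4 and 76.6 FPKM in CST mice and 110.9, 60.0 and 113.7 FPKM in Yoda1 mice. CST mouse 1 was highest, and the other 5 lay between 60.0 and 113.7 FPKM with the treatments mixed. The means were 116 ± 75.2 FPKM in CST and 94.9 ± 30.2 FPKM in Yoda1 skin (SD, n = 3 each). The difference by limma was 0.17 on the log2 scale (SE 0.45, adjusted p = 1.000), and it turned to -0.32 with CST mouse 1 left out, -0.13 with Yoda1 mouse 2 left out and -0.16 without the 2 libraries of high mitochondrial share. Between 359 and 999 reads stood behind each value.

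Defb4 (ENSMUSG00000059230, chr8:19198706-19201545), an inducible epithelial beta-defensin, measured 5.39, 2.62 and 2.73 FPKM in CST mice and 3.12, 0.676 and 8.15 FPKM in Yoda1 mice. The highest and the lowest value both belonged to Yoda1 mice, and they rested on 88 and 9 reads. The means were 3.58 ± 1.57 FPKM in CST and 3.98 ± 3.81 FPKM in Yoda1 skin (SD, n = 3 each), the reverse of the sign on the log2 scale. The difference by limma was 0.15 on the log2 scale (SE 0.58, adjusted p = 1.000), and it turned to -0.12 with CST mouse 1 left out and to -0.47 with Yoda1 mouse 2 left out. Defb3 (ENSMUSG00000039775, chr8:19293360-19295291), its close relative, had the narrowest range of the tested members, with 3.77, 2.62 and 4.38 FPKM in CST mice and 5.65, 2.11 and 3.97 FPKM in Yoda1 mice. Its means were 3.59 ± 0.892 FPKM in CST and 3.91 ± 1.77 FPKM in Yoda1 skin (SD, n = 3 each), and the groups overlapped. The difference by limma was -0.05 on the log2 scale (SE 0.32, adjusted p = 1.000), the highest value was 2.68 times the lowest, and 17 to 46 reads stood behind each value. The sign changed to 0.11 without CST mouse 2 and to 0.20 without Yoda1 mouse 1. With estimated library weights the difference was -0.65 (SE 0.24, limma unadjusted p = 0.0244, adjusted p = 0.116). The largest of those weights, 12.8, was that of Yoda1 mouse 1, the highest library for Defb3.

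**Figure D4:**
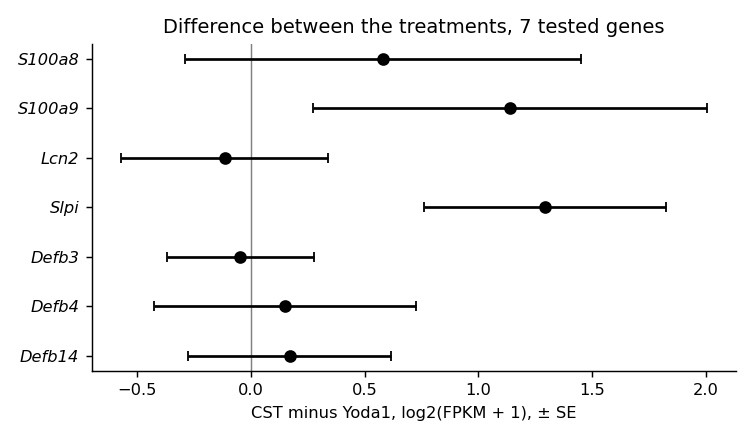
Difference between CST and Yoda1 skin for the 7 tested genes, in units of log2(FPKM + 1) with the limma standard error, CST minus Yoda1; points right of the line were higher in CST skin. Slpi (1.29) and S100a9 (1.14) lay farthest from 0, and no gene passed the adjusted threshold.

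Ngp, Camp and Ltf, which encode neutrophil granule proteins, lay below the filter of a mean of 1 FPKM and had no test in the main comparison. Ngp (ENSMUSG00000032484, chr9:110419747-110423012), which encodes a cystatin-like protein of specific granules, measured 1.15, 0.354 and 0.254 FPKM in CST mice and 0.0829, 0.0279 and 1.14 FPKM in Yoda1 mice. These came from 34, 12 and 9 reads in CST mice and 3, 1 and 33 reads in Yoda1 mice, and the highest libraries were CST mouse 1 and Yoda1 mouse 3, as for S100a8. Camp (ENSMUSG00000038357, chr9:109847379-109849617), the cathelicidin gene, measured 0.438, 1.24 and 0.318 FPKM in CST mice and 0.668, 0.855 and 0.388 FPKM in Yoda1 mice, from 7 to 26 reads. Like Lcn2 it was highest in CST mouse 2 and lowest in CST mouse 3.

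Ltf (ENSMUSG00000032496, chr9:111019271-111042767), the lactoferrin gene, measured 0.487, 0.583 and 0.202 FPKM in CST mice and 0.397, 0.200 and 0.432 FPKM in Yoda1 mice, from 4 to 11 reads. The groups overlapped for each of Ngp, Camp and Ltf. With no filter on low values, limma gave log2 changes of 0.21 (SE 0.34) for Ngp, -0.01 (SE 0.23) for Camp and 0.08 (SE 0.13) for Ltf, each with an adjusted p of 1.000.

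Azurophil granule genes were scarce as well. These granules form first in neutrophil development. Mpo, Elane and Ctsg lay below the filter, and Prtn3, proteinase 3, had a log2 change of 0.17. Of 6 tested genes in a list of other specific and gelatinase granule proteins, 3 had a log2 change above 0 (median -0.29) and 0 were called. Cybb, a subunit of the NADPH oxidase that macrophages also make, had the smallest p of the list and measured 24.3, 23.0 and 18.1 FPKM in CST mice and 63.7, 63.9 and 19.3 FPKM in Yoda1 mice (log2 change -0.96, SE 0.45). The log2 change of Hp, haptoglobin, was -0.67 (SE 0.58), and that of the gelatinase gene Mmp9 was 0.94 (SE 0.58). The collagenase gene Mmp8 measured 10.4, 4.88 and 0.852 FPKM in CST mice and 2.06, 0.802 and 2.18 FPKM in Yoda1 mice. In a list of immature neutrophil and granule-programme genes, Cebpe, Gfi1 and Fcnb lay below the filter too. The other 3 genes of that list, Mki67, Top2a and Cd34, were tested, and 0 were called. They averaged 32.9, 73.0 and 79.1 FPKM over the 6 libraries, and the cells they came from were not tested.

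Markers of mature neutrophils were highest in CST mouse 1, as S100a8, S100a9, Slpi and Defb14 were. Their summed level was 1395, 412 and 314 FPKM in CST mice and 266, 152 and 231.5 FPKM in Yoda1 mice, so all CST values lay above all Yoda1 values. All 11 of 11 tested markers had a log2 change above 0 (median 1.33), beside 47.2% of all genes. Of these markers 6 had an unadjusted limma p under 0.05, beside 4.0% of all genes, and 0 were called. The markers were read in the same mice and are not separate observations. Their list was chosen with earlier results of these data known, so these counts are given as a description. Trem1, an activating receptor of neutrophils, had a log2 change of 1.99, and Acod1, which makes itaconate, one of 2.43. Ly6g, a defining marker, reached at most 1.82 FPKM and was listed at 0 in Yoda1 mouse 1. Wound-induced keratinocyte markers, the keratins and small proline-rich proteins of injured epidermis, summed to 11314, 7893 and 8501 FPKM in CST mice and 6728, 4964 and 17586 FPKM in Yoda1 mice. CST mouse 1 was thus highest in the neutrophil sum and second in the wound keratinocyte sum. Yoda1 mouse 3 was highest in the wound keratinocyte sum but lay below Yoda1 mouse 1 in the neutrophil sum. Both CST mouse 1 and Yoda1 mouse 3 were high in S100a8 and S100a9. In bulk tissue, fewer cells of a type and less RNA per cell cannot be told apart, and the part of these cells in the values of the 10 genes was not tested.

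Monocyte and macrophage markers had a log2 change below 0 in 11 of 12 (median -0.51, 0 called), with sums of 1135 to 1587 FPKM in CST mice and 990.5 to 3836 FPKM in Yoda1 mice. Skeletal muscle markers differed most of the marker lists, with sums of 5791 to 10784 FPKM in CST mice and 92.7 to 4113 FPKM in Yoda1 mice. All 6 of 6 were above 0 (median 4.18), beside 47.2% of all genes, and 0 were called. All 6 also did not overlap, beside 6.59% of all genes, and had an unadjusted limma p under 0.05, beside 4.0%. The 6 genes were read in the same mice and are not 6 separate observations. Fibroblast markers were below 0 in 6 of 6 (median -0.58). They summed to 3754 to 6121 FPKM in CST mice and 3616 to 11409 FPKM in Yoda1 mice. Basal and suprabasal keratinocyte markers were above 0 in 9 of 9 (median 0.38). They summed to 14063 to 21796 FPKM in CST mice and 11201 to 25321 FPKM in Yoda1 mice. The sums of the treatments overlapped in both lists, and 0 genes were called in either. The part of these cells in the values of the 10 genes was not tested.

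**Figure D5:**
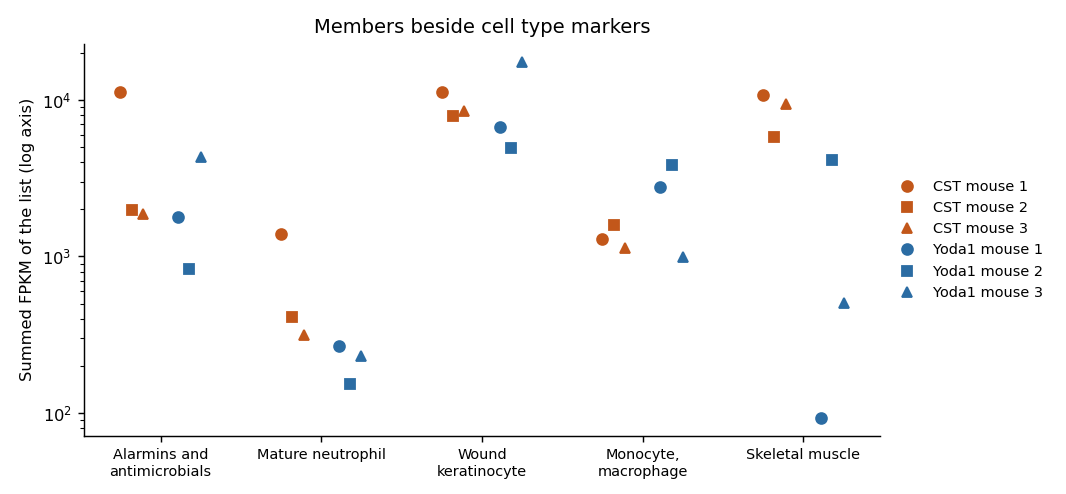
Summed FPKM of the 10 genes and of 4 lists of cell type markers in each library on a log axis, CST mice left and Yoda1 mice right; points are mice. The 10 genes were highest in CST mouse 1 and Yoda1 mouse 3, and neutrophil markers in CST mouse 1. Wound keratinocyte markers were highest in Yoda1 mouse 3 and next in CST mouse 1.

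Among the cytokines and signalling genes known to induce these proteins, 10 of 17 tested had a log2 change above 0 (median 0.26), beside 47.2% of all genes. Of the 17, 3 had an unadjusted limma p under 0.05, beside 4.0% of all genes, and 0 were called. Il1b, an interleukin that induces defensins in epithelia, measured 1046, 288 and 280.4 FPKM in CST mice and 115.6, 42.9 and 91.5 FPKM in Yoda1 mice, with no overlap (log2 change 2.50, SE 0.57, limma adjusted p = 0.521). Tnf, a cytokine that signals through NF-kappaB, measured 84.1, 11.4 and 25.8 FPKM in CST mice and 4.40, 1.39 and 5.50 FPKM in Yoda1 mice, also without overlap (log2 change 2.80, SE 0.69, limma adjusted p = 0.561). Il1a measured 86.2, 12.1 and 23.7 FPKM in CST mice and 7.23, 3.94 and 15.4 FPKM in Yoda1 mice, where CST mouse 2 lay below Yoda1 mouse 3. Il17a, Il17f, Il17c and Il22, inducers of Lcn2 and the defensins in epithelia, lay below the filter, with 0.151 FPKM the highest value of any of the 4.

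Of the receptors and carriers, 5 of 10 tested had a log2 change above 0 and 0 were called. Cd14, the co-receptor of Tlr4, measured 392, 142 and 149 FPKM in CST mice and 107.5, 63.2 and 48.7 FPKM in Yoda1 mice, without overlap (log2 change 1.54, SE 0.45, limma adjusted p = 0.640). Tlr4 itself had a log2 change of -0.08 (SE 0.45). Ager had one of 0.56 (SE 0.25), Lrp1, an endocytic receptor that takes up lactoferrin, one of -0.55 (SE 0.31), and Cd36 one of -0.86 (SE 0.51).

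Other antimicrobial genes of skin had a log2 change above 0 in 5 of 16 and below 0 in 11 of 16 (median -0.12), with 0 called. Pglyrp1, a peptidoglycan recognition protein of neutrophil granules, measured 6.56, 8.28 and 4.86 FPKM in CST mice and 3.85, 4.67 and 3.41 FPKM in Yoda1 mice. Lyz2, the lysozyme of myeloid cells, measured 840, 597.5 and 436 FPKM in CST mice and 1773, 1558 and 613 FPKM in Yoda1 mice (log2 change -0.98, SE 0.45). Other S100 genes were above 0 in 6 of 10 (median 0.06), with 0 called. Other alarmins were above 0 in 2 of 6 (median -0.05), with 0 called. Tslp, an epithelial cytokine, had the smallest p of that list, with a log2 change of -0.54 (SE 0.33), and Hmgb1 had one of 0.18 (SE 0.20). Metal-handling genes were above 0 in 7 of 11 (median 0.34), and the iron exporter gene Slc40a1 had a log2 change of 0.64 (SE 0.29). In a list of proteases that process cathelicidin or are held by Slpi, 3 of 4 tested genes were above 0, with the kallikrein gene Klk5 at 0.58 (SE 0.35). The gene below 0 was Grn, the progranulin gene, which does not encode a protease (log2 change -0.42, SE 0.60).

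The protein-coding genes outside the 10 that lay nearest to each member by centred profile over the 6 libraries, whatever the treatment, differed between members. The profile of S100a9 lay nearest to Csta2 (root mean square difference 0.24 on the log2 scale) and that of S100a8 to Spink12 (0.31). S100a8 and S100a9 lay 0.28 apart, nearer than S100a8 lay to Spink12 but farther than S100a9 lay to Csta2. Slpi lay nearest to Slc7a11 (0.19), a cystine transporter gene that was also second for S100a9, 0.41 away. Lcn2 lay nearest to Gng8 (0.15), Defb4 to Klk6 (0.17), Defb14 to Spag9 (0.22) and Defb3 to Wfdc21 (0.09), a whey acidic protein gene measured at 128, 95.6 and 163 FPKM in CST mice and 172, 91.7 and 131 FPKM in Yoda1 mice. Flat profiles lie near many genes, so these distances describe the 6 libraries only.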

How the data were processed

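Skin RNA of 6 mice (3 CST, 3 Yoda1, by sample title) was sequenced, and the authors deposited 1 table of FPKM values with gene names. No source used here names the aligner or counter, and GRCm38 and mm10 come from the submitters' processing notes. Deposited starts equalled those of GENCODE M21 in 2.81% of matched genes, so gene positions were taken by identifier from GENCODE M21 (GRCm38). Steps in the FPKM values gave the read depth, and every gene above 0 (30697) then gave whole reads within 0.0001 reads. The length behind the FPKM was within 1 base of the mean length of the gene's annotated transcripts in 94.1% of tested genes. For Ltf this was 681 bases, so levels between genes depend on that annotation.

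limma 3.58.1 in R 4.3.3 (lmFit, eBayes with a trend, two-sided) was run on log2(FPKM + 1) of the 14588 genes that averaged 1 FPKM or more, adjusted over all of them. Fold changes on this scale understate low genes. Ratios used exact permutation in scipy 1.17.1. Alternatives covered the pseudocount, filter, scaling, library weights, recovered reads with limma-voom, the mouse number as a block and left-out libraries. The genes named are the 10 members, up to 4 genes of the smallest p in each list and each member's nearest profiles. Tlr4, Krt5, Krt14, Defb6 and genes below the filter were named after their values were seen. The members and lists were chosen with earlier results of these data known. Each library is 1 mouse. Counting figures cover counting error only.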

Additional observations from a re-analysis of the deposited data

How the results depend on the processing

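No member was called under any of the 16 alternatives. Over all genes 0 were called (584 at an unadjusted p under 0.05), as under 13 of the 16, among them limma-voom on recovered reads (586 at an unadjusted p under 0.05). With estimated library weights, 1348 genes were called, 655 of them higher in CST. The weights were 12.8, 0.657 and 0.193 for Yoda1 mice 1 to 3, and 0.305, 2.47 and 0.822 for CST mice 1 to 3. The weighted Yoda1 values therefore rested mostly on Yoda1 mouse 1. Leaving out 1 library gave 0 to 136 calls (136 without Yoda1 mouse 2, 8 without CST mouse 2, 0 without each of the others). The cause of these changes was not tested. S100a9 and Slpi kept their direction under all 16 alternatives. Leaving out 1 library turned the direction of the other 5: the log2 change ran from -0.33 to 1.26 for S100a8, from -0.52 to 0.30 for Lcn2, from -0.34 to 0.20 for Defb3, from -0.47 to 0.75 for Defb4 and from -0.32 to 0.45 for Defb14. With library weights S100a8 was at 0.07, Defb3 at -0.65, Defb4 at -0.061 and Defb14 at -0.46, and 2 members, Slpi and Defb3, had an unadjusted p under 0.05, and without the 2 libraries of high mitochondrial share Defb14 was at -0.16; the cause was not tested. The ratios of S100a8 to S100a9 and of Slpi to Defb14 were recomputed without each library and without those 2, alternatives chosen after seeing the data, and kept their direction in each. Mouse numbers were shared between the treatments, but same-numbered mice did not deviate together (r = -0.08, 0.21 and -0.20 across genes), and CST mouse 1 correlated best with Yoda1 mouse 3 (0.34). With the mouse number as a replicate block 0 genes and 0 members were called, and 680 genes had an unadjusted p under 0.05. Low depth limits Camp, Ngp, Ltf, Defb3 and Defb4, with at most 88 reads per value.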
